A study of Mus musculus with 248 samples.

Results

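Cluster D is 1 of 5 groups, named A to E, into which the authors sorted single mouse hematopoietic stem cells (HSCs) by their RNA. Its members here are the 524 genes that the authors' deposited cluster table lists as higher in cluster D than in all other cells, out of 16203 genes tested and 3336 listings over the 5 clusters. HSCs were purified by flow cytometry from C57Bl6 mice as Lin-, Sca1+, cKit+, CD150+ and CD48- cells and then taken from the low or the high end of mitochondrial membrane potential (MMP), the voltage across the inner mitochondrial membrane. Both groups share strain and surface gate, and neither carried an allele or treatment that the labels name. Each library held 1 cell, 122 of them MMP-low and 126 MMP-high, and the design text speaks of 224 cells kept after filtering. The animals' age and number, and how many cells fell in each cluster, are not stated in the sources used here, so each MMP group and each cluster counts as 1 sample and no new test was made. Which single cells make up cluster D was not analysed here, but the deposited shares bound their sort. Lrrn4, 1 of the members, was detected in 94.1% of cluster D cells and 0% of MMP-low cells. If both shares count the same cells, at least 94.1% of cluster D cells were MMP-high.

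HSCs are rare bone marrow cells that are mostly quiescent and that can renew themselves and form all blood lineages. Membrane potential is built by the respiratory chain and drives ATP synthesis and protein import into mitochondria. A cell leaving quiescence makes ribosomes in the nucleolus, expands mitochondrial metabolism, copies its DNA in S phase and divides in M phase.

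All folds, shares of cells with a gene detected and adjusted p-values given here are the authors' deposited values. The folds are average log fold changes of unstated base, the adjusted p is the p-value times 16203, and the table lists only genes with a log fold of at least 0.25 and a p under 0.01, and only in the higher direction. The 524 members therefore passed a threshold on the very values that describe them, these values are given as a description, and a gene that is not listed is not shown to be unchanged. The tables hold no values of unlisted genes, so no median over all genes tested can be set beside the members' medians. Listed genes made up 3.23% of genes tested for cluster D and 2.8% for cluster E, and those with an adjusted p under 0.05 made up 1.86% and 1.12%. The same shares were 5.27% and 4.05% for A, 4.16% and 1.64% for B, and 5.12% and 3.07% for C. MMP-high libraries had more genes detected than MMP-low libraries, with median numbers of 3795.5 and 2316.5, at median read totals of 1816108 and 1620811. The part of detected gene number in the differences given here was not tested.

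To show the start regions of member genes, the 150 bases before the RefSeq start site (build GRCm38.p6) are given 5′ to 3′ for Vav1, the gene of largest fold, and for the member of largest fold that holds each of 3 promoter motifs, among regions free of annotated exons. Capitals mark CCAAT (the NF-Y motif), CCGGAAG (the ETS family motif) and GCGCATGCG (the NRF1 motif), read on both strands. None of these motifs, nor the YY1, E2F or E-box motifs described further on, lay in the Vav1 stretch.
Vav1 (chr17:57278950-57279099, plus strand): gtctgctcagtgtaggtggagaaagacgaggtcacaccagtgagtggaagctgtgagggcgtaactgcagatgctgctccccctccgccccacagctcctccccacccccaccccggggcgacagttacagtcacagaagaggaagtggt
Gpn1 (chr5:31494591-31494740, plus strand): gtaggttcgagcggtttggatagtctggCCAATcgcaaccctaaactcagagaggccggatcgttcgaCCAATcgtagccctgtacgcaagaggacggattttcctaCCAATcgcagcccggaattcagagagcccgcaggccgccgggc
Prps1 (chrX:140456453-140456602, plus strand): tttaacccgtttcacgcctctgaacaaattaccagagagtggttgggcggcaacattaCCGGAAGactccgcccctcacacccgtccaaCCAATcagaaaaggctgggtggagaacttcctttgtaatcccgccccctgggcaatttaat
Cbfb (chr8:105170524-105170673, plus strand): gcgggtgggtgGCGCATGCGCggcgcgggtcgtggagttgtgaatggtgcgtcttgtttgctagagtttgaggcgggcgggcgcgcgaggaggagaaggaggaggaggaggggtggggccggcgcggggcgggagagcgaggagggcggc
Gpn1 holds 3 copies of CCAAT, Prps1 holds 1 ETS motif and 1 CCAAT, and Cbfb holds the NRF1 motif on both strands, overlapping itself.

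Cluster D is the authors' own grouping of cells. Its 5 leading genes were chosen by fold in this same table and so describe it without supporting it. Vav1, a guanine nucleotide exchange factor of blood cells (GENCODE M21, chr17:57279100-57328031, plus strand), had a log fold of 0.67 and was detected in 100% of cluster D cells and 80.9% of other cells. Gpn1, a GTPase needed to bring RNA polymerase II into the nucleus (chr5:31494741-31512904, plus strand), followed at 0.63 with detection in 100% and 59.5%. Ppp6c, the catalytic subunit of protein phosphatase 6 (chr2:39194354-39226451, minus strand), had 0.60 with 100% and 73.4%. Bcap29, a membrane protein of the endoplasmic reticulum (chr12:31590967-31634658, minus strand), had 0.59 with 100% and 83.2%. Usp1, which removes ubiquitin from the DNA repair proteins FANCD2 and PCNA (chr4:98923810-98935543, plus strand), had 0.59 with 100% and 73.4%. All 5 were thus detected in every cluster D cell and in most other cells as well. In the authors' deposited table, Gpn1 alone of the 5 had an adjusted p under 0.05, at 9.07e-04. The adjusted p was 0.0959 for Ppp6c, 0.251 for Usp1, and 1 for Vav1 and Bcap29.

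The next members by fold were genes of membranes and of intermediary metabolism. Flot1, a scaffold protein of membrane rafts, had a log fold of 0.58, with detection in 100% of cluster D cells and 82.1% of others. Adssl1, an adenylosuccinate synthase on the route to AMP, had 0.57, with 100% against 37%, and its adjusted p by the authors' deposited table was 4.47e-10. Abhd4, a lipase of N-acyl phospholipids, had 0.56, with 100% against 45.7%. Pdha1, the E1 alpha subunit through which pyruvate dehydrogenase feeds the tricarboxylic acid cycle, had 0.55, with 100% against 63.6%. Khk, which phosphorylates fructose, had 0.54, with 100% against 90.2%. These genes were detected in all cluster D cells too, while their detection elsewhere ran from a minority of cells for Adssl1 to most cells for Khk.

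Ranking the members by the gap in detection gave a different set of leading genes. Zfp760, a zinc finger gene, was detected in 98% of cluster D cells and 19.7% of other cells, a gap of 78.3 percentage points. Lrrn4, a leucine-rich repeat membrane protein, was detected in 94.1% against 18.5%, and Adam9, a membrane metalloproteinase, in 98% against 22.5%. Nup93, a structural subunit of the nuclear pore, was detected in 98% against 23.7%. Fbxo31, a substrate receptor of a ubiquitin ligase, Rabggta, the alpha subunit of the enzyme that attaches lipid anchors to Rab GTPases, Abcd4, a cobalamin transporter, Pctp, a phosphatidylcholine carrier, Il12rb1, a subunit of the interleukin receptors that bind IL-12, and Zfp369 completed the 10, with gaps of 73.1 to 74.9 points. The log folds of these 10 genes were moderate, at 0.26 to 0.47, and all 10 had an adjusted p under 0.05. Of the 10 members of largest fold, 4 did. The other cells of D include those of E, and Zfp760, Lrrn4 and Nup93 were detected in 100% of E cells. For these 3 genes the gap does not set D apart from E. The rest of the genes leading by gap were not listed for E, so their detection in E is not given.

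**Figure D1:**
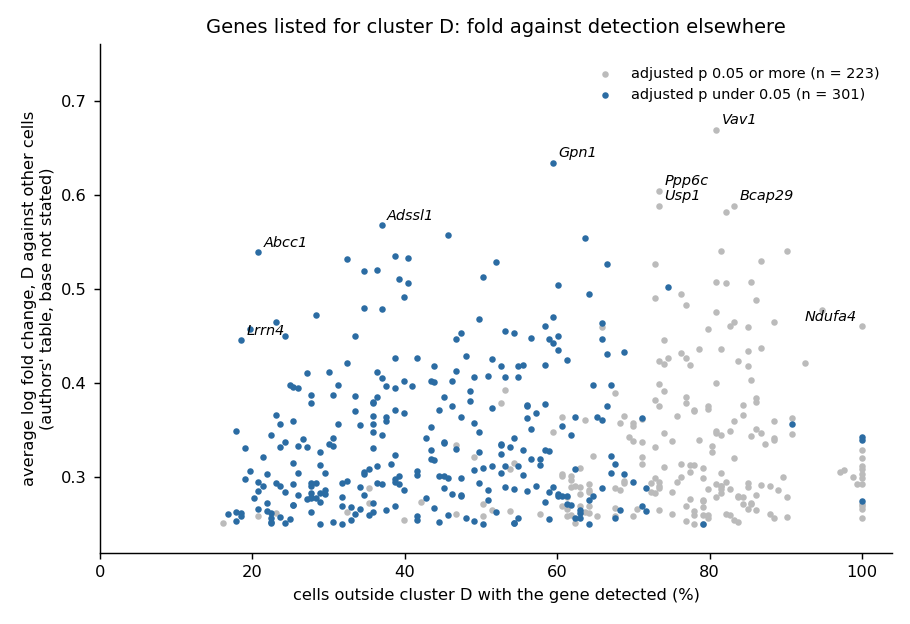
Each point is 1 of the 524 genes listed for cluster D, with the share of cells outside the cluster in which it was detected (x, percent) and its average log fold change in the authors' table (y, base not stated). Blue points have an adjusted p under 0.05 (301 genes) and grey points do not (223 genes): low detection elsewhere goes with blue, and Vav1, Ppp6c, Bcap29 and Usp1 lie high among grey points.

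Over all members, the log fold ranged from 0.25 to 0.67 with a median of 0.31, and 29 genes reached 0.5. The 3 members just inside the listing threshold were Fpgs, Ino80c and Mllt1, each at 0.25. Detection had a median of 98% in cluster D and 58.7% in other cells, and 243 of the 524 genes (46.4%) were detected in every cluster D cell, against 84.4% of the genes of cluster E in every cell of E. A gene more easily reaches every cell of a small cluster. Cluster sizes are not stated, so these shares of D and E are not like for like. The median detection gap was 39.6 points, against 32.05 for the genes of cluster E, 32.15 for B, 24.6 for A and 18.2 for C. An adjusted p under 0.05 was reached by 301 members (57.4%), and 163 members had an adjusted p of 1. Of the 97 members detected in at least 80% of other cells, 4 had an adjusted p under 0.05, and of the 75 detected in under 30% of other cells, 72 did. Adjusted p-values under 0.05 were thus nearly the rule among members detected elsewhere in few cells, although their median log fold of 0.29 was below the 0.33 of the widely detected ones.

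Among DNA replication genes, 11 of the 65 on a list of G1/S genes were listed for cluster D, or 16.9% of the list against 3.23% of all genes tested. Pola2, the second subunit of DNA polymerase alpha, was detected in 100% of cluster D cells and 48.6% of others, with an adjusted p of 7.46e-05. Pole, the catalytic subunit of DNA polymerase epsilon, was detected in 100% and 62.4%, and Prim1, the primase subunit, in 100% and 71.1%. Mcm5, a subunit of the replicative helicase, and Cdt1, which loads that helicase on origins, had log folds of 0.26 and 0.25. Usp1, Rpa1, Pola1, Tk1, Atad2 and Tyms were the other members. With Pola1, Pola2 and Prim1 listed, the cluster held 3 subunits of the polymerase alpha-primase complex. In all, 4 of the 11 had an adjusted p under 0.05, namely Pola2, Pole, Mcm5 and Cdt1.

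Clusters C and E listed 11 and 10 genes of the same G1/S list. Cluster D shared 4 of its 11 with E, namely Usp1, Pole, Rpa1 and Mcm5. It shared 1, Tyms, with C, whose other genes were Cdk6, Lig1, Mcm2, Mcm3, Mcm4, Mcm7, Orc6, Pold3, Rrm2 and Uhrf1. Cluster C thus listed 4 helicase subunits and no polymerase alpha or epsilon subunit, and cluster D listed the polymerase subunits with 1 helicase subunit. Whether the clusters differ in these genes was not tested, since a listing in 1 cluster does not show a lower level in another.

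Mitotic genes were listed for cluster D in 10 of 63 cases, or 15.9% of the list, against 5 for C, 3 for E, 3 for A and 1 for B. Ccnb1, the cyclin that drives entry into mitosis, had the largest log fold, 0.39, with detection in 88.2% of cluster D cells against 53.2% of others and an adjusted p of 1. Pbk, a mitotic kinase, was detected in 100% against 74%, and Kif22, a chromosome-moving kinesin, in 96.1% against 37% with an adjusted p of 2.95e-06. Ccnb2, a second B-type cyclin, had 98% against 61.8%, and Spc25, a kinetochore subunit, 96.1% against 52.6%. Cdca3, Racgap1, Cdca8, Tacc3 and Aurka made up the rest, and Aurka, a centrosomal kinase, was detected in 88.2% against 28.9%. An adjusted p under 0.05 was found for 6 of the 10. Cluster E shared Ccnb2 and Racgap1.

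Of 62 genes of DNA damage and repair, cluster D listed 4 (6.45%, against 3.23% of all genes tested). Clusters A and C listed more, 5 each, and E listed 3 and B 2. Among the 4 of D were Usp1, H2afx, the histone variant phosphorylated at DNA breaks, and Chek1, a checkpoint kinase. Chek1 was detected in 92.2% of cluster D cells and 30.6% of others, with an adjusted p of 2.47e-05. Timeless, a protein of the replication fork that the authors' DNA replication term holds, was detected in 100% and 30.6%.

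Genes of ubiquitin conjugation and removal were listed in 11 of 67 cases (16.4%), against 7 for C, 5 for E, 4 for B and 2 for A. Usp1 led them, and Uba2, a subunit of the enzyme that activates SUMO, followed with a log fold of 0.53. The deubiquitinase Usp34 had 0.42 with detection in 100% of cluster D cells against 61.3%, and the ubiquitin ligase Itch had 0.40 with 100% against 43.4% and an adjusted p of 9.54e-09. Usp4, Ube2v2, Ube2g1, Cyld, Xiap, Ube2q1 and Otub1 were the others, and 5 of the 11 had an adjusted p under 0.05. Of 42 proteasome genes, Psmd8 and Psmd3 were listed (4.76%, as for E), each with an adjusted p of 1.

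Mitochondrial genes were spread over several steps. Of 77 respiratory chain and ATP synthase genes, 5 were listed for cluster D (6.49%), 3 for E, 1 each for A and C, and 0 for B. Ndufv1, the subunit of complex I that binds NADH, stood apart with a log fold of 0.51, detection in 100% against 50.3% and an adjusted p of 5.56e-06. Ndufa4, Cox7b, Ndufa12 and Atp5l had log folds of 0.29 to 0.46, were detected in nearly every cell of either kind, and had an adjusted p of 1. Of 28 genes of pyruvate dehydrogenase and the tricarboxylic acid cycle, 2 were listed for D, Pdha1 and Pdk3, a kinase that inhibits pyruvate dehydrogenase. Cluster A listed 5 genes of that list. Of 99 genes of the mitochondrial ribosome and import, 6 were listed for D (6.06%), against 5 each for C and E. They were led by Mrps23 at 0.45 and Ptcd3, a protein of the small mitochondrial ribosomal subunit, at 0.43, both in D. Hk1, a hexokinase, was the 1 gene of 23 in glycolysis listed for D (4.35%, as for B, C and E).

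Cytosolic ribosomal protein genes were listed for cluster D in 7 of 81 cases (8.64%), for A and C in 1 case each and for B and E in 0. Rps29, Rps25, Rps27l, Rps2, Rpl39 and Rpl37a were among them, each detected in 100% of cells inside and outside the cluster. Rps29 had a log fold of 0.34 with an adjusted p of 0.00219 and Rps25 had 0.34 with 0.00139, and no other of the 7 had an adjusted p under 0.05. Some of these genes have near-identical pseudogene copies and are uncertain where reads could be shared. Of 69 genes of ribosome biogenesis and translation, 5 were listed for D (7.25%) and 6 for E, with no gene in common. Clusters A and B listed 4 each and C 3. Cluster D listed Rrp12, Ddx18, Rrp1b, Bop1 and Noc3l, of which Rrp1b was detected in 100% against 37% with an adjusted p of 5.05e-09. Of 69 splicing genes, D listed Sf3a1, Prpf6 and Srsf1 (4.35%, near the 3.23% of all genes tested), all 3 also listed for E. Cluster C listed the most of this list, 8, and E listed 6, A 2 and B 0.

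Phosphatase, kinase and trafficking genes were listed at shares like those of the mitochondrial groups. Among 64 phosphatases and kinases, 5 were listed for D (7.81%), 5 each for C and E, 4 for B and more, 7, for A. Cluster D listed Ppp6c together with Ppp6r1, a regulatory subunit of the same phosphatase 6, and Ppp1cb, Akt1 and Ppp4r2. Akt1, a kinase of growth factor signalling, had a log fold of 0.40 and an adjusted p of 0.00628. Vav1 and Myb, a transcription factor of blood progenitors, were 2 of 65 genes of hematopoietic signalling, and Myb had a log fold of 0.26 with an adjusted p of 1. Of 78 genes of the endoplasmic reticulum, Golgi and vesicle traffic, Bcap29, Rab1b, Stt3a, Arcn1, Sec22b and Rab18 were listed for D (7.69%). Cluster A listed 8 of these 78, C 6, E 4 and B 1. Stt3a, the catalytic subunit that adds sugar chains to proteins, was detected in 100% against 59.5%, with an adjusted p of 3.40e-04. Of 65 genes of chromatin and repression, Cbx5 was the 1 listed (1.54%).

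In 5 further lists cluster A had the most genes. Of 56 lysosome and vacuolar ATPase genes, Glb1, a lysosomal galactosidase, was listed for cluster D, with a log fold of 0.26 and an adjusted p of 1 (1.79% of the list against 3.23% of all genes tested), while 17 were listed for A, 10 for B, 3 for C and 3 for E. Of 42 autophagy genes, D listed Atg10, Fundc1 and Atg12 (7.14%), as many as C, and A listed 6. Of 49 stem cell and quiescence genes, D listed Gfi1b and Eng, neither with an adjusted p under 0.05 (4.08%, near the share over all genes tested), and A listed 18. No immediate early gene of 31 was listed for D, against 13 for A. The interferon list of 39 gave Gbp7 and Gbp2 for D (5.13%), and A listed 7 of it.

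Of the 6 lists of markers of other cell types, 4 had no gene among the members. Csf3r, the granulocyte colony-stimulating factor receptor, was the 1 listed of 27 granulocyte, monocyte and macrophage markers (3.7%, near the 3.23% of all genes tested), with detection in 98% of cluster D cells against 60.1%. Clusters A and B listed 8 and 12 of these markers. Gfi1b and Gp9, a platelet surface protein, were 2 of 20 megakaryocyte markers (10%), against 1 for A and 0 for B, C and E, and neither had an adjusted p under 0.05. None of 26 lymphoid, 18 erythroid, 14 mast cell, eosinophil and basophil, or 16 endothelial and stromal markers was listed for D. Of the genes of the sort, Slamf1, which encodes CD150, and Ly6a, which encodes Sca1, were listed for A and not for D, and Kit and Cd48 were listed for no cluster. Since levels of unlisted genes are not in the tables, the level of these markers in cluster D was not analysed here.

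**Figure D2:**
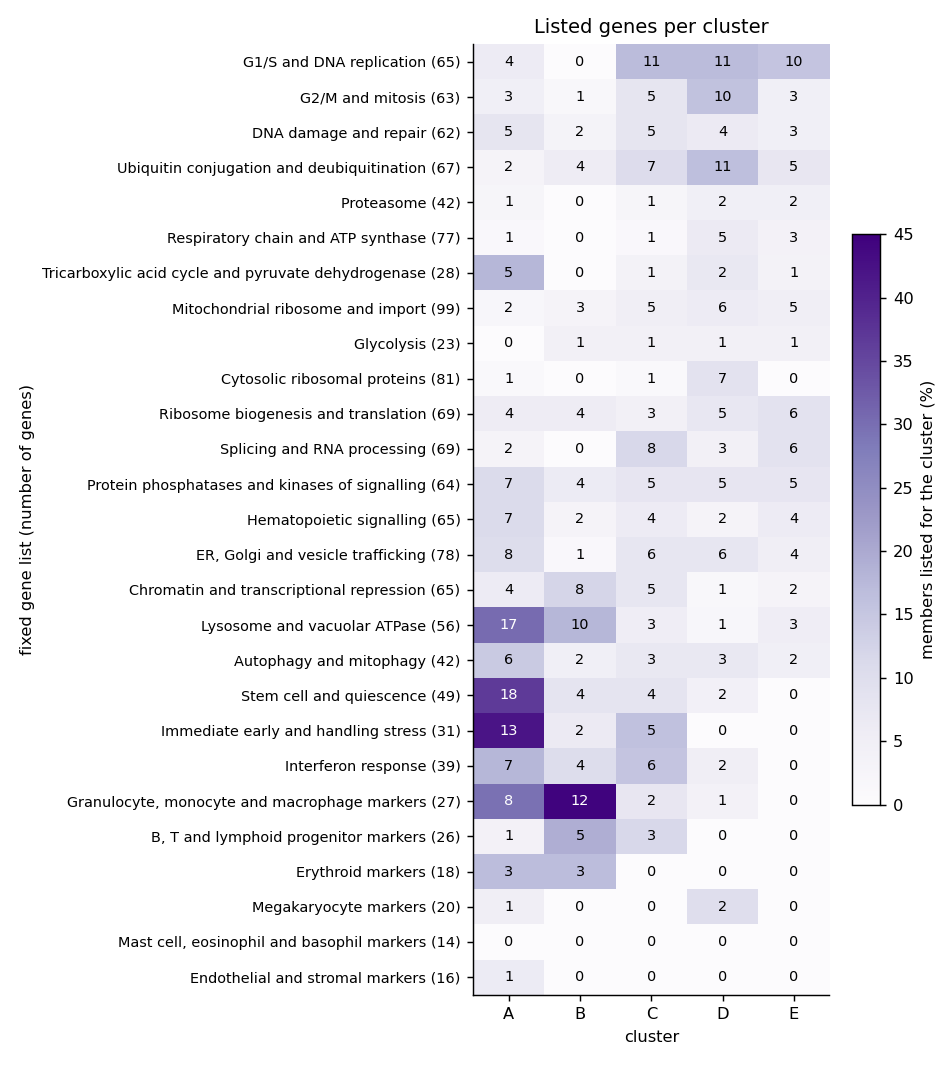
Rows are the 27 gene lists with their sizes, columns the 5 clusters; each cell gives the number of list genes that the authors list as higher in that cluster, and its shade the percent of the list. Cluster D has 11, 10 and 11 genes in the G1/S, G2/M and ubiquitin rows and 7 ribosomal protein genes, and A has 17 lysosome and 18 stem cell genes against 1 and 2 for D.

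The authors' deposited term table gives 63 gene ontology terms for cluster D, 21 in each of 3 parts, 11 of them with an adjusted p under 0.05 and 4 under 0.01. The table for cluster E gives 62 terms, 43 under 0.05. The tool and background behind these values are not stated in the sources used here. The leading term of D was nucleolus, with 48 of 658 genes and an adjusted p of 4.58e-08. Its members include Rrp12 and Rrp1b, which mature ribosomal RNA, and also Pdha1, Pdk3 and Osbp, which are better known from mitochondria or the Golgi. Mitochondrial inner membrane followed with 25 of 330 genes and 3.14e-04. Besides respiratory chain subunits it held Immt, which shapes cristae, Letm1, an ion exchanger, and Hadhb, an enzyme of fatty acid oxidation. Mitochondrion had 48 of 921 genes and rRNA processing 17 of 181, with an adjusted p of 0.00615. The exosome subunits Exosc1 and Exosc2, which trim RNA, and ribosomal protein genes such as Rps2, Rps25, Rps29, Rpl37a and Rpl39 were part of the latter.

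The remaining terms under 0.05 were smaller or broader. Ciliary basal body had 9 of 80 genes, among them Ift88 and Bbs4, which build and serve cilia, and Nedd1, a centrosomal protein. Ift88 was detected in 92.2% of cluster D cells and 22% of others. RNA binding had 54 of 1194 genes. PTW/PP1 phosphatase complex had 3 of 7 genes, Tox4, Ppp1cb and Wdr82. The G1/S transition held 10 of 87 genes, with Ppp6c, Akt1 and Phf8 beside polymerase subunits, and DNA replication 11, both at an adjusted p of 0.0368. Focal adhesion had 20 of 355 and SNARE complex 6 of 47 genes. The syntaxins Stx6, Stx12 and Stx17, which fuse vesicles with their target membranes, were in the latter, and Stx12 was detected in 86.3% against 19.1%. Of all 63 terms of D, 9 recur in the table of E, and most of the 9 held more genes in D. Cluster D also lists more genes, 524 against 454. Nucleolus had 48 genes in D and 30 in E, and mitochondrion 48 and 42. RNA binding had 54 in both, with an adjusted p of 0.0199 in D and 6.1e-05 in E. DNA replication had 11 and 10, centrosome 19 and 20, and the telomeric region 8 and 9.

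The genes of clusters D and E overlapped more than those of D and any other cluster. The genes listed for both make up 22.7% of the 524 of D and 26.2% of the 454 of E, where 2.8% of all genes tested were listed for E. Cluster A shared 1 gene (Thoc3), B 3 (Hras, Tes and Kbtbd2) and C 2 (Dctd and Tyms). These are 0.191%, 0.573% and 0.382% of the members, against 5.27%, 4.16% and 5.12% of all genes tested. Each cluster was set against all other cells, so the cells of E are among the others of D and the reverse, and a gene high in both is compared with a raised background in each table. The listing rule thus works against overlap, and the small overlaps with A, B and C are not read as a result about D. Of the genes shared with E, 82 had an adjusted p under 0.05 for D, 56 for E and 55 for both. Adjusted p-values also depend on the number of cells in a cluster, so these counts do not rank D over E.

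Among these shared genes, the log fold was larger in D for 86 and larger in E for 33, with medians of 0.36 and 0.30. The folds have unlike backgrounds, since cells of E are among the others of D and cells of D among the others of E. Cluster sizes are not stated, so these counts do not show higher expression in D than in E. Of the 10 shared genes of largest fold in D, Vav1 had a log fold of 0.67 in D and 0.48 in E, and its adjusted p was 1 in D and 0.0035 in E. Gpn1 had 0.63 and 0.34, and Usp1 had 0.59 and 0.27. Flot1 had 0.58 and 0.34, Adssl1 0.57 and 0.42, and Abhd4 0.56 and 0.28. Lsg1, a GTPase of large ribosomal subunit maturation, had 0.54 and 0.31, Thap12 0.53 and 0.28, Ubxn2b 0.53 and 0.39, and Ddx6, an RNA helicase of mRNA decay, 0.53 and 0.40. Ppp6c and Bcap29 were not listed for E.

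The shared genes that leaned furthest to E were Mier2, a corepressor protein, with 0.28 in D and 0.62 in E, Naa50, an N-terminal acetyltransferase, with 0.26 and 0.60, and Ptcd3, with 0.43 and 0.65. Those 3 rank among the 4 genes of largest fold in E, where the leading gene is Faap100, a Fanconi anaemia protein that is not listed for D. All 3 were detected in every cell of both clusters. Members shared with E included both widely and narrowly detected genes: Zfp760 was detected in 98% of D and 100% of E cells, and Lrrn4 in 94.1% and 100%.

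**Figure D3:**
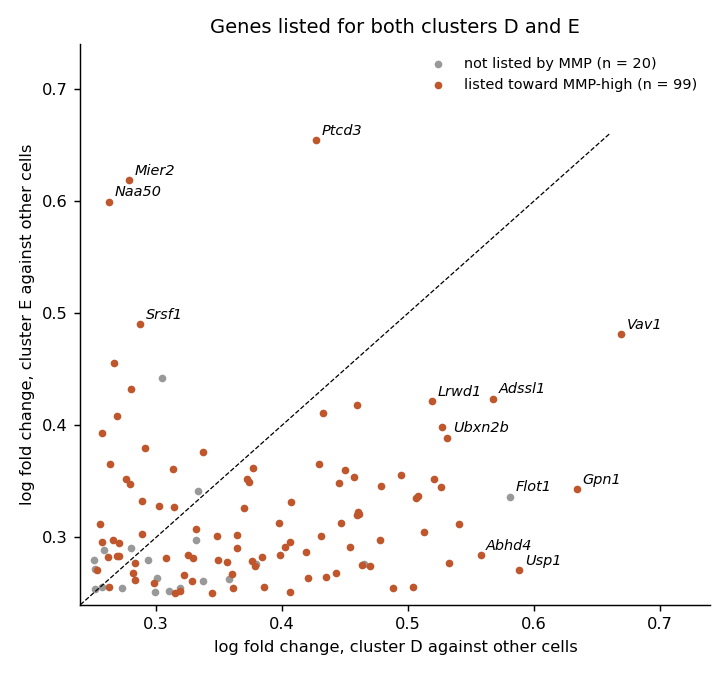
Each point is 1 gene listed for both clusters, with its average log fold change for D (x) and E (y) against all other cells; the dashed line marks equal folds and orange points are genes listed toward MMP-high. Of these genes 86 lie below the line, with Vav1, Gpn1 and Usp1 far to the right, and Ptcd3, Mier2 and Naa50 lie high above it. The other cells differ between the axes, so a point below the line does not show higher expression in D than in E.

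In the authors' deposited MMP table, made from the same sorted cells and so no independent support, 279 of the 524 members (53.2%) appear on the MMP-high side and 0 on the MMP-low side. By the Lrrn4 shares (94.1% of D, 0% of MMP-low cells), cluster D is nearly all MMP-high cells. A gene listed as higher in D is thereby pushed toward MMP-high. The split of 279 and 0 is thus largely set by which cells D holds. The MMP-high side holds 5.67% of all genes tested and the MMP-low side 5.86%, or 3.69% and 3.33% with an adjusted p under 0.05. MAST, a regression model for single cells, is named in its title. The genes of E fell on the MMP-high side in 223 cases and on the MMP-low side in 1, those of A in 0 and 556, and those of B in 0 and 407. For C the shares were 14.6% and 7.23% of its genes. Of the members shared with E, 99 (83.2%) lay on the MMP-high side, against 180 of the 405 not listed for E (44.4%) and 37% of the 335 genes of E not listed for D.

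All 5 leading genes were among the 279. For Vav1, detection was 94.1% at high and 75.2% at low potential, with a log fold of 0.63 and an adjusted p of 1.29e-04 by MAST. Usp1 was detected in 92.4% and 64.8%, with 0.61 and 1.08e-05. Gpn1, Ppp6c and Bcap29 had log folds of 0.47, 0.48 and 0.47 and an adjusted p of 1, and Ppp6c was detected in 80.7% and 78.1%, hardly apart. The largest MMP log folds among the members, a choice made after seeing the values, were those of Ptcd3, with 0.76 and detection in 78.2% against 23.8%, and Pbk, with 0.73 and 90.8% against 67.6%. Adssl1 had 0.70 with 79.8% against 19%, and Ndufv1 0.64 with 89.9% against 29.5%. Lrrn4 was detected in 67.2% of MMP-high cells and was listed at 0% in MMP-low cells, and Abcc1, an export pump, in 68.1% and 1.9%.

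By group, the MMP table listed 8 of the 11 G1/S members, 7 of the 10 mitotic members, all 5 respiratory chain members and 6 of the 7 ribosomal protein members toward MMP-high. Ccnb1, Cdca8 and Aurka among mitotic genes, and Rpa1, Prim1 and Cdt1 among replication genes, were listed for D and not by MMP. Neither proteasome member, and neither Gfi1b nor Eng, was listed by MMP. The MMP log fold of the 279 genes had a median of 0.35, and their median detection was 84% at high and 45.7% at low potential. The members not listed by MMP had a median log fold of 0.29 in cluster D, against 0.36 for the 279, and 20 of these 245 (8.16%) were shared with E, against 99 of the 279 (35.5%).

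**Figure D4:**
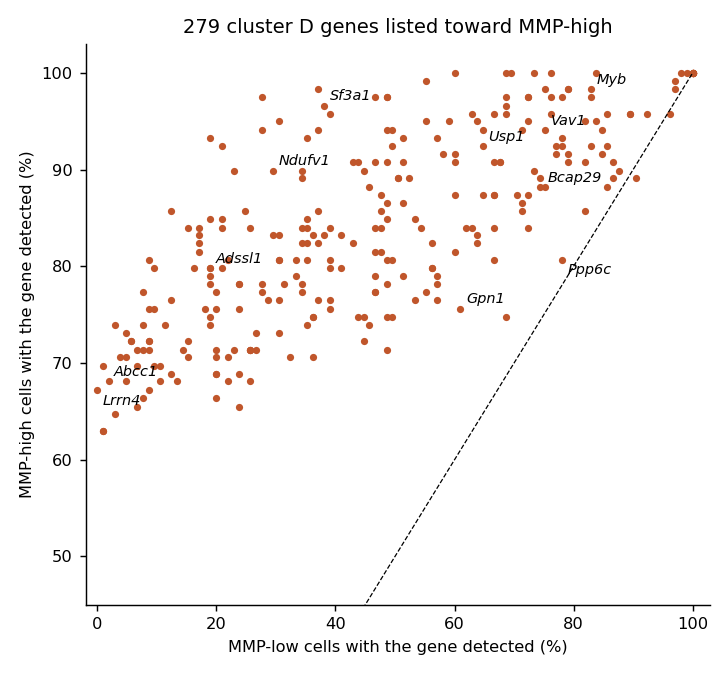
Each point is 1 of the 279 cluster D genes that the authors list as higher in MMP-high cells, with the percent of MMP-low (x) and MMP-high (y) cells in which it was detected; the dashed line marks equal detection and the y axis starts at 45%. Nearly all points lie above the line; Lrrn4 and Abcc1 lie at the far left, and Bcap29 and Ppp6c lie close to the line.

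The authors' deposited pair table scores 13 pathways over the cells and compares clusters in pairs, with a z score and a p-value that equals the 1-sided normal p of that z times the 10 pairs. The table does not say which cluster of a pair a positive z favours. It is read here as D minus the other cluster, since the lysosome pair of D and A has a z of -8.65 while A lists 17 lysosomal genes and D 1, and the electron transport pair of D and B has 5.99 while D lists 5 respiratory chain genes and B 0. Listings and z scores do not run together in every pair: B lists 10 lysosomal genes and D 1, with a z of 0.17, and D lists 5 respiratory chain genes and E 3, with a z of -3.09. With the reading as D minus the other, cluster D scored below E in 13 of 13 pathways and above B in 13 of 13, and with the opposite reading these directions and all those that follow would be turned. All 13 pairs with E carried the authors' mark of significance, as did 8 of the pairs with B, 7 with A and 3 with C.

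By sign, the 2 respiratory pathways differed from the other 11 in the pairs with A. Against A, D scored higher in the electron transport chain (z of 2.41, p = 0.0791) and oxidative phosphorylation (1.81, p = 0.3545), neither marked, and lower in the other 11, most so for lysosome and macroautophagy (-5.93). Against C, the 2 respiratory pathways were higher in D with 4.45 and 3.88, both marked, and macroautophagy was lower with -4.20, also marked. The other pairs with C were not marked and had either sign, from -2.33 for lysosomal vesicle biogenesis to 2.05 for the tricarboxylic acid cycle. Against B, the marked pairs were the electron transport chain, oxidative phosphorylation, the tricarboxylic acid cycle (5.19), glycolysis (4.60), purine metabolism (4.64), translation factors (4.11), mRNA processing (4.92) and transcription initiation (4.38). The 5 lysosome and autophagy pathways differed between D and B by z scores of 0.17 to 1.36, none marked. Against E, the smallest gaps were in the electron transport chain (-3.09, p = 0.0101) and oxidative phosphorylation (-3.47, p = 0.0026), and the widest in macroautophagy (-7.24) and translation factors (-7.17). Cluster E scored above the other cluster in 50 of its 52 pairs over all pathways.

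**Figure D5:**
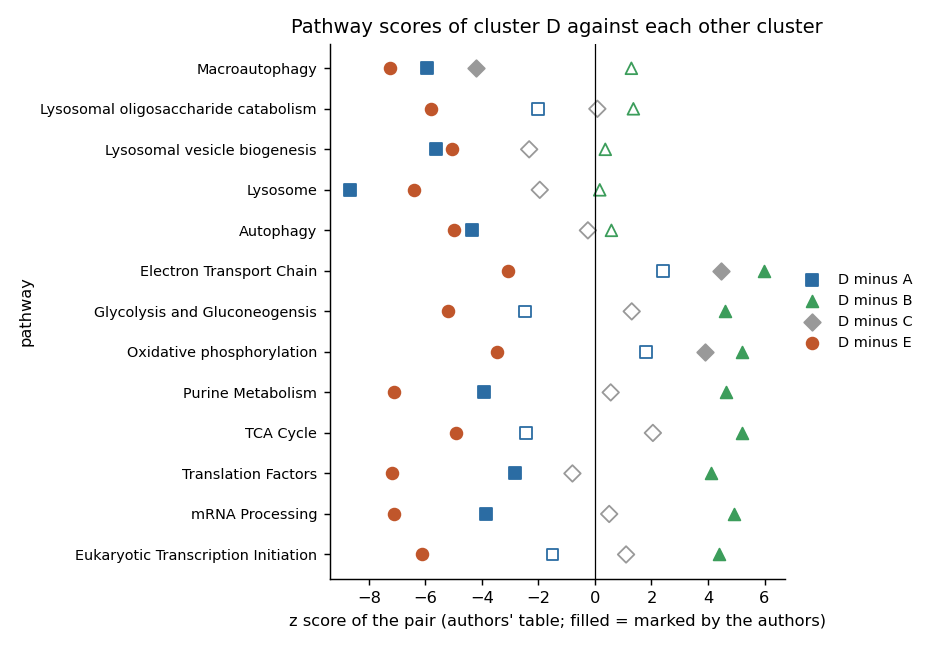
For each of 13 pathways (rows) the points give the z score of cluster D against A (squares), B (triangles), C (diamonds) and E (circles), read as D minus the other; filled points carry the authors' mark of significance. The circles lie left of 0 in every row and the triangles right of 0, and the squares and diamonds lie right of 0 together in the electron transport and oxidative phosphorylation rows.

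Promoter windows of 250 bases before to 50 after the RefSeq start were at hand for 415 of the 524 members (79.2%), with none for Usp1 and Bcap29. The ETS motif CCGGAAG lay in the windows of 26.3% of these members, as in the Prps1 stretch, in 26.3% of genes of E, 20.7% of C, 19.9% of A and 17.6% of B, and in 13.4% of protein-coding genes with a window. The NRF1 motif GCGCATGCG lay in 4.34% of members, 5.38% of E genes and 2.74% of protein-coding genes, as in Cbfb, the partner subunit of the RUNX factors, which had a log fold of 0.41 in D. The YY1 motif AAGATGGCG lay in 6.51% of members, 4.25% of E genes and 2.25% of protein-coding genes. CCAAT lay in 42.9% of members and 42.1% of protein-coding genes, the E2F motif TTTCCCGC in 2.89% and 1.66%, and the E-box CACGTG in 10.6% and 9.18%. The members had the lowest share of the clusters for CCAAT (44% in C to 45.6% in E) and the E-box (10.9% in C to 14.2% in A). The E2F motif lay in 4.25% of E, 3.58% of C, 2.48% of B and 2.33% of A genes. Both strands were searched and no motif was counted as excluding another. A match is a description of letters, and the base composition of the windows was not matched.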

How the data were processed

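Single HSCs were captured on a Fluidigm C1 chip and made into libraries with SMART-Seq v4 and Nextera XT, per the labels' protocols. Per the submitters' processing notes, STAR 2.5.2b, bcl2fastq 2.17.1.14 and the mm10 build were used. Read counts and numbers of detected genes per library were deposited by the authors. The authors' deposited gene tables hold a p-value, an adjusted p-value, an average log fold change (a score in an unstated base) and detection as a fraction of cells, turned into percent here; the term tables hold overlaps and adjusted p-values, and the pair table z scores. The clustering and its test are not named in the files, and normalization or imputation would move folds and detection. Expression per cell was not analysed here.

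Tables were joined on upper-case symbols with Python 3.11.15 and pandas 2.3.3, and 520 of 524 members matched GENCODE M21. Counts use the authors' calls as listed, and the joins were tested on simulated data. Members, lists, motifs and the naming rule were chosen with earlier results of these data known. Named genes were the 5 leading genes, the 10 members of largest fold and of largest detection gap (without predicted genes), up to 4 per list, the 10 of largest fold shared with E, and genes of the leading terms; other names were chosen after their values were seen. Alternatives were an adjusted p under 0.05, a log fold of at least 0.5, a detection gap of at least 25 points, leaving out predicted genes, a term threshold of 0.01 or at least 5 genes, and an absolute z of at least 2.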

Additional observations from a re-analysis of the deposited data

How the results depend on the processing

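Of the 524 genes listed for cluster D, 301 remained with an adjusted p under 0.05 and 29 with a log fold of at least 0.5, while 504 remained without predicted genes and 383 with a detection gap of at least 25 points. With an adjusted p under 0.05 in both tables, the genes shared with E came to 55, from 22.7% of members, those shared with A from 1 to 0, with B from 3 to 0 and with C from 2 to 0, and those listed toward MMP-high from 279 to 166, with 0 toward MMP-low in either case. The members found in any of the 27 lists went from 89 to 35 with an adjusted p under 0.05, and the count moved by more than 1.5 times in 20 lists. Terms went from 11 to 4 at a threshold of 0.01. Pathways with an absolute z of at least 2 were 8 of 13 against B and 5 of 13 against C, against 11 for A and 13 for E.

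No paired analysis was possible because the tables give clusters and groups and no values per library, and the shared numbers in the titles name cells, not pairs. Each group is 1 sample, so none of these values has a check across animals. Genes under the authors' listing threshold, and detection below what the depth of a library shows, were out of reach.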

Other observations

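The authors' deposited list of highly variable genes, made with MAST per its title, holds 5624 distinct genes, equal to 34.7% of the number tested. It held 276 of the 524 genes of cluster D (52.7%), 50.2% of those of E, 44.1% of C, 63.1% of A and 80.6% of B. Vav1, Gpn1 and Bcap29 were on it, and Ppp6c and Usp1 were not.

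A further deposited list gives 55 genes shared by MMP-high cells and a set the authors call aHSC, an abbreviation not spelled out in the files. It held 18 genes of cluster D, which is 32.7% of that list and 3.44% of the members, against 16 genes of E and 13 of C and none of A and B. The list holds MMP-high genes alone, and the members make up 30.4% of all genes listed toward MMP-high, a share near 32.7%. Clusters A and B had no gene listed toward MMP-high, so none of their genes could be on it. The 18 were Actn4, Bop1, Cep78, Isyna1, Ndufv1, Pip5k1c, Por, Ppif, Ppp2r3c, Prmt5, Ptma, Rbck1, Rps27l, Rrp1b, Tbcc, Timeless, Txn1 and Tyms. None of the 99 genes of the matching MMP-low list (dHSC) was listed for cluster D. By its name that list holds genes of the MMP-low side, where no member was listed, so this outcome was set in advance.

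By position, 30 of the 520 members placed on the genome (5.77%) lay on chromosome 19, which holds 3.28% of protein-coding genes and 4.21% of the genes of E. Chromosome 7 held 6.54% of members and 9.22% of protein-coding genes. Of the placed members, 507 were annotated as protein coding.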
